A study of Caenorhabditis elegans with 5 samples.

Results

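The genes described here encode proteins of the mitochondrial ribosome of Caenorhabditis elegans. They were taken from the deposited table as every gene name that begins with mrpl- or mrps- and a number, which gave 66 of 42048 genes, 39 of the large subunit (mrpl) and 27 of the small subunit (mrps). A gene counted as measured when 2 or more of the 5 libraries held a normalised count of at least 10. This held for 59 of the 66, 34 of the large and 25 of the small subunit, against 13787 genes of the whole table. The rule uses names and not the comparison of genotypes, but this gene family was chosen with earlier results of these data known.

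The libraries came from fluorescence-sorted neurons of animals on day 1 of adulthood, raised at 16 °C. There were 2 libraries of wildtype animals and 3 of thoc-5(wy822) mutants, and the animals of both groups carried edIs6, a transgene that joins unc-119 sequence to GFP. THOC-5 belongs to the THO complex, which packages new messenger RNA for export from the nucleus, and the labels do not describe the wy822 lesion. Whether libraries came from separate cultures is not said in the labels, so each p-value measures the spread between these libraries alone, and that spread may be technical. The values are gene counts that the authors divided by a size factor for each library, called normalised counts below, and fold changes are given as the mutant mean less the wildtype mean of log2(normalised count + 1), which understates the change of low genes.

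Mitochondrial ribosomes sit at the inner membrane of the mitochondrion and make the few respiratory chain proteins that mitochondrial DNA encodes. Their RNAs come from mitochondrial DNA, while every one of their proteins is encoded in the nucleus, made by cytosolic ribosomes and imported. Some of the proteins belong to families shared with bacterial ribosomes and others are found only in mitochondria. In C. elegans, knockdown of mrps-5 and of other genes of this family is known to lengthen life and to switch on the mitochondrial stress response.

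Libraries differed in ways that bear on every value below. Each wildtype library had 10.2 M to 10.3 M reads on genes, and each mutant library 6.80 M to 8.69 M. The mutated gene, listed as Y32H12A.2, stood at 154 and 122.2 (wildtype) against 78.3, 34.6 and 12.7 (mutant) normalised counts (log2 fold change -2.03, limma adjusted p = 0.148). Of 15 pan-neuronal markers all had reads in both groups, but together they took 0.435% and 0.0390% of reads in the wildtype libraries (replicates 1 and 2) and between 1.15% and 1.97% in mutant ones. Germline markers took 0.234% and 0.0957% in wildtype and 0.0144% to 0.0307% in the mutant, and muscle markers 0.772% and 1.63% against 0.122% to 0.193%. For intestine markers the shares were 0.478% and 0.395% against 0.0372% to 0.0946%, and for epidermis markers 8.57% and 5.71% against 0.180% to 0.871%. In limma 6 of 15 pan-neuronal markers were called higher, against 6.97% of all genes tested. The called markers include unc-119, whose sequence is also part of edIs6. All 15 were above 0 in log2 fold change, with snb-1 (0.74) and unc-64 (0.27) lowest and not called. Much of the pan-neuronal share was egl-21 and egl-3, at 23980 and 8402 of 39115 normalised counts in wildtype replicate 1. In mutant replicate 3 they held 98660 and 35227 of 166961, and neither was called in limma. Called lower were 7 of 14 germline, 7 of 10 muscle, 5 of 10 intestine and 5 of 9 measured epidermis markers, against 5.92% of all genes tested. The epidermis markers were not uniform, with rol-6 higher in every mutant library (log2 fold change 2.01, not called in limma) and sqt-3 nearly level (-0.04). Collagen genes col-140 and col-119 held 348350 and 364285 of the 770671 normalised counts of epidermis markers in wildtype replicate 1. Every measured marker of these lists had reads in both groups, and their part in the results below was not tested. Fewer cells of a type and less RNA per cell cannot be told apart in such libraries.

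No mitochondrial ribosomal protein gene passed the test, and most lay somewhat lower in the mutant libraries. Of the 59 measured genes 0 were called higher and 0 lower at an adjusted p below 0.05 in limma, where 12.9% of all genes tested were called, 6.97% higher and 5.92% lower. edgeR also called 0 of the 59, and 0 of all genes, while DESeq2 called 0 of the 59 against 27% of all genes, 15.4% higher and 11.6% lower. The authors' deposited table calls 0 of the 66 against 24.1% of all genes, 13.4% higher and 10.7% lower. At an unadjusted p below 0.05, limma had 1 of the 59 genes (38.2% of all genes), edgeR 1 (28.1%) and DESeq2 2 (38.4%), all of them lower, and the authors' deposited table has 2 of the 66 (29.9%). The log2 fold change was below 0 in 53 of the 59, with a median of -0.66, against 47.7% of all genes tested and a median of 0.13. The groups did not overlap for 26 of the 59 genes (44.1%), each time with the mutant lower, and 26.5% of all genes tested were of that kind. Genes that were higher in every mutant library numbered 0 of the 59, against 30.1% of all genes, and 56.6% of all genes had non-overlapping groups in either direction. The 53 became 44 without wildtype replicate 1, 53 without wildtype replicate 2 and 46 without mutant replicate 2. Only mrps-28 counted as measured through the wildtype libraries alone. Without the filter 60 of all 66 genes were below 0.

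How many of the genes lie below 0 depends on how libraries are scaled. As shares of all reads, the 66 genes took 0.0612% (exact 95% interval 0.0597% to 0.0627%) and 0.0449% (0.0437% to 0.0463%) in the wildtype libraries, given in the order of their replicate numbers. In the 3 mutant libraries the shares were 0.0686% (0.0667% to 0.0705%), 0.0395% (0.0381% to 0.0411%) and 0.0423% (0.0410% to 0.0437%). The groups overlapped, and the highest share belonged to a mutant library. With libraries scaled to the same total, 39 of the 59 genes had a log2 fold change below 0, against 38.8% of all genes, and 8 had non-overlapping groups with the mutant lower, against 19.1%, while 0 had the mutant higher, against 36.2%. That scaling moved the median of all genes from 0.13 to 0.57, a shift of more than 0.1, so the values can be read against it. Relative to the median of all genes, the median of the 59 genes was -0.79 with the authors' size factors and -0.78 with total reads.

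**Figure D1:**
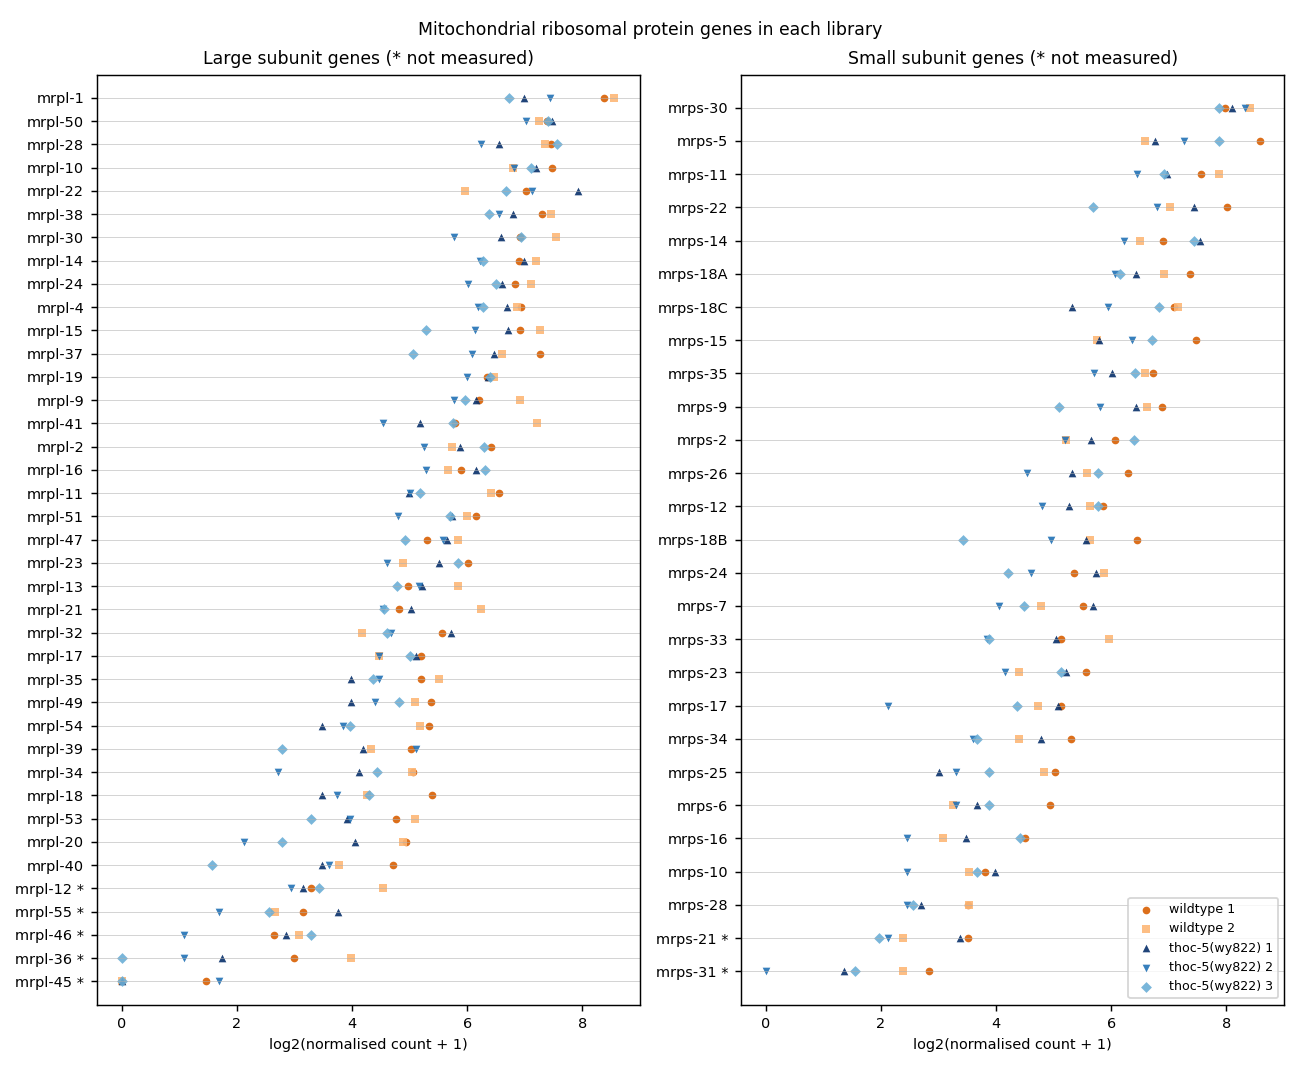
Level of each of the 66 genes in each of the 5 libraries, as log2(normalised count + 1) on the horizontal axis, with large subunit genes on the left, small subunit genes on the right and genes ordered by their mean. Orange marks are wildtype and blue marks mutant libraries, an asterisk marks the 7 genes not measured, and mrpl-1 at the top left shows both wildtype libraries to the right of all 3 mutant libraries.

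Among large subunit genes mrpl-1 and mrpl-11 had the lowest p-values in limma. mrpl-1 (WBGene00017997, WBcel235 chromosome IV, 7707574 to 7709701, minus strand, protein coding) encodes the counterpart of bacterial L1, which forms the mobile stalk beside the exit of spent tRNA. Wildtype libraries held 329.7 and 373 normalised counts, and mutant replicates 1, 2 and 3 held 125, 172 and 104.3, from 107 to 378 reads. Every mutant library thus lay below both wildtype libraries. The means were 351 ± 30.6 (SD, n = 2) and 134 ± 34.6 (SD, n = 3), a log2 fold change of -1.41 (SE 0.47, 95% interval -2.54 to -0.29). This was the only interval among the 59 that left out 0, and the gene did not pass after adjustment over all genes (adjusted p = 0.0805 in limma, 0.0743 in the authors' deposited table). An exon of mrpl-1 overlaps one of emc-6 on the same strand, so the reads of the overlap cannot be assigned to either gene.

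mrpl-11 encodes the counterpart of bacterial L11, part of the platform where translation factors dock, and mrpl-12, mrpl-10 and mrpl-11 together correspond to the bacterial stalk region. mrpl-11 (WBGene00015133, WBcel235 chromosome III, 8717644 to 8718567, plus strand) held 92.4 and 83.9 normalised counts (wildtype) against 30.5, 31.3 and 35.1 (mutant). Its groups did not overlap and its mutant libraries were close to each other, with a log2 fold change of -1.42 (SE 0.66, adjusted p = 0.165 in limma). mrpl-10, the stalk base, showed no such separation, at 175 and 109 against 145, 112 and 136 in mutant libraries (log2 fold change -0.09, 95% interval -1.32 to 1.14). mrpl-12, the stalk protein itself, was not measured by the rule, with 10 and 21 reads in its wildtype libraries against 10, 6 and 10. The 3 genes of this region therefore did not share a separation between groups at this depth.

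The other large subunit genes with the lowest fold changes were mrpl-20 and mrpl-54. mrpl-20, counterpart of a bacterial protein that binds early in assembly of the subunit, held 29.7 and 28.7 against 15.7, 3.35 and 5.85 (log2 fold change -1.93, SE 1.03, adjusted p = 0.215 in limma). The lowest of these values rests on 3 reads. mrpl-54, which encodes a protein found only in mitochondrial ribosomes, was at 39.2 and 35.1 against 10.2, 13.4 and 14.6 (log2 fold change -1.49, SE 0.85, adjusted p = 0.243 in limma). In both genes the groups did not overlap, and with 3 to 45 reads a library their intervals reached above 0.

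Genes with counterparts at the catalytic core and along the exit tunnel differed among themselves. mrpl-2, counterpart of a protein at the peptidyl transferase centre, held 83.7 and 52.1 (wildtype) against 57.96, 36.8 and 77.0 (mutant), with overlap (log2 fold change -0.26, SE 0.69). mrpl-4, counterpart of a protein that lines the exit tunnel, held 121 and 116 against 103, 71.4 and 76.0, without overlap (log2 fold change -0.52, SE 0.54). mrpl-22, whose counterpart also lines the tunnel, held 129 and 61.6 against 240.5, 138 and 101, with overlap. Also with tunnel counterparts were mrpl-24 (-0.59, SE 0.55, without overlap) and mrpl-23 (-0.13, SE 0.82, with overlap). The tunnel genes named here are not a complete set. The log2 fold change of mrpl-22, 0.74 (SE 0.64, adjusted p = 0.430 in limma), was the highest of all 59 genes. Next among large subunit genes came mrpl-32 (0.14), mrpl-16 (0.13) and mrpl-17 (0.03), each with overlapping groups and an SE of 0.68 to 0.90.

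Among small subunit genes the decoding centre gene and the gene of the worm lifespan work had overlapping groups. mrps-12, counterpart of the decoding centre protein S12, held 56.7 and 48.9 (wildtype) against 37.6, 26.8 and 53.6 (mutant), with overlap (log2 fold change -0.47, SE 0.73). mrps-5 (WBGene00008452, WBcel235 chromosome V, 12563487 to 12565801, plus strand), whose knockdown is known to lengthen life, held 381 and 94.6 against 107, 153 and 232. All 3 mutant libraries thus lay between the 2 wildtype libraries, and the log2 fold change of -0.28 (SE 0.73) became 0.72 without wildtype replicate 1 and -1.28 without wildtype replicate 2. mrps-11 (WBGene00012244, WBcel235 chromosome V, 12493239 to 12494622, minus strand), a protein of the platform that holds messenger RNA, held 188 and 233 against 124, 85.9 and 119.9, without overlap (log2 fold change -0.94, SE 0.49, adjusted p = 0.211 in limma). Its exons overlap those of inx-11 in the annotation.

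The lowest fold changes of the small subunit belonged to mrps-25 (-1.53, SE 0.91), mrps-18B (-1.40, SE 0.93), mrps-33 (-1.29, SE 0.89) and mrps-18C (-1.09, SE 0.66), with adjusted p from 0.256 to 0.322 in limma. In each of these the groups did not overlap. mrps-25 held 31.4 and 27.6 against 7.05, 8.93 and 13.6. mrps-18C held 135 and 142 against 39.2, 60.3 and 113, so that its highest mutant library came close to wildtype. The mrps-18 genes encode relatives of bacterial S18, and the third of them, mrps-18A, had a log2 fold change of -0.93. At the other end stood mrps-14 (0.36), mrps-2 (0.10), mrps-30 (-0.10) and mrps-23 (-0.15), all with overlapping groups. mrps-30 had the smallest SE of all 59 genes, 0.43, and was nearly level, at 252 and 339.99 against 274, 320.3 and 234 (95% interval -1.13 to 0.94).

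**Figure D2:**
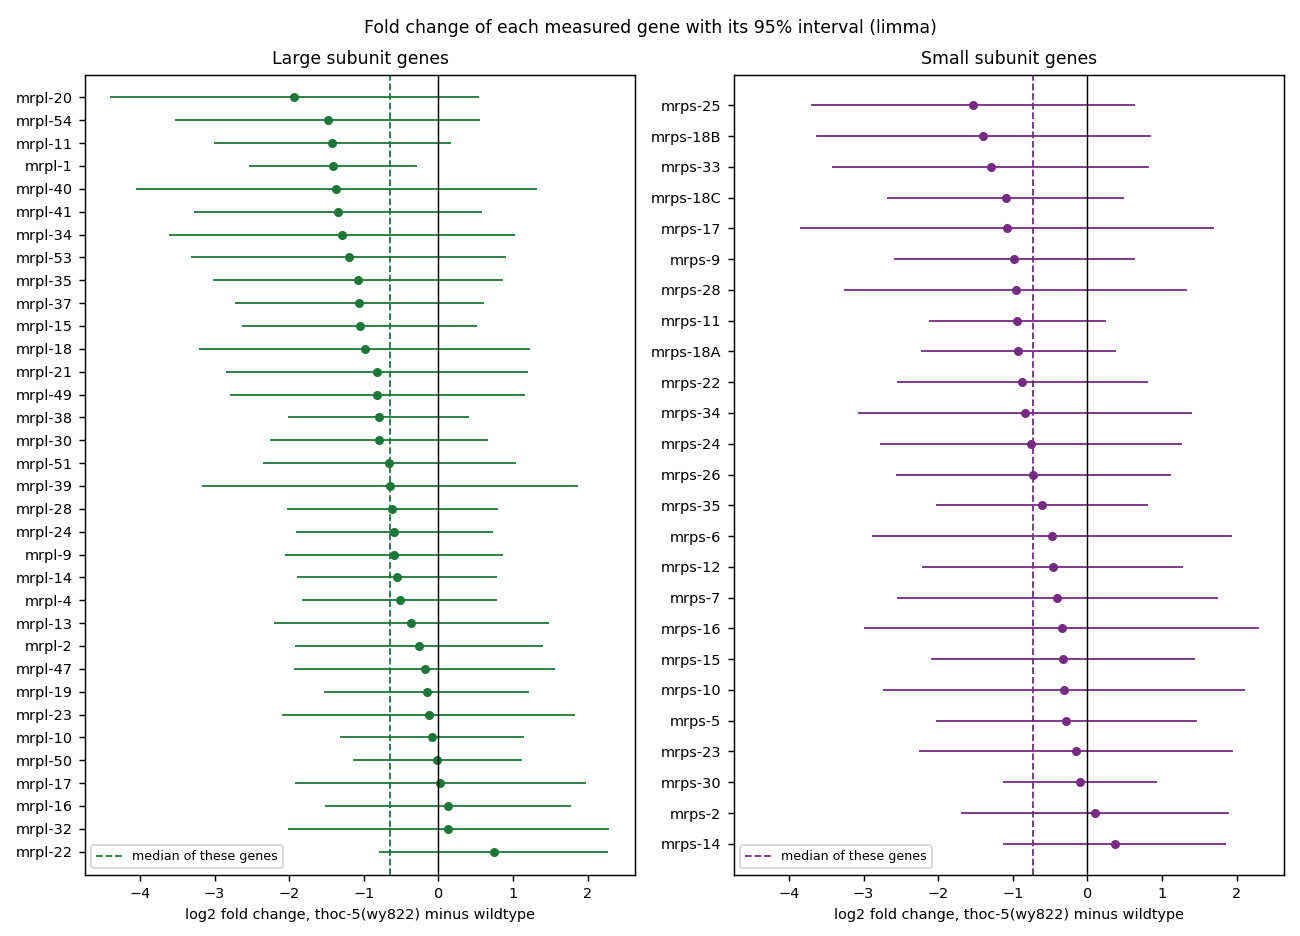
Log2 fold change of each of the 59 measured genes (points) with its 95% interval from limma (bars), large subunit on the left and small subunit on the right, ordered by fold change, with the median of each subunit as a dashed line. Of the 59 bars, 58 cross 0, and that of mrpl-1 lies below it.

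The intervals were wide throughout. The standard error ran from 0.43 to 1.16 with a median of 0.74, and it was larger for genes with fewer reads (Spearman rho of -0.91 with the mean normalised count over the 59 genes, which share libraries). The 95% interval reached to -1 or lower for 58 of the 59 genes, so a level 2 times lower was inside the interval of nearly every gene. The measured genes had a median of 52 reads in a library. Between the 3 mutant libraries the median coefficient of variation was 34.4%, against 14.9% that counting error alone would give, and 52 of the 59 genes varied by more than counting error.

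Both subunits lay at similar values. The median log2 fold change was -0.65 for the 34 large subunit genes and -0.72 for the 25 small subunit genes, with 30 and 23 of them below 0. The mutant lay lower without overlap for 17 of the 34 (50%) and for 9 of the 25 genes (36%), against 26.5% of all genes tested. In human mitochondrial ribosomes the counterparts of mrps-18A and mrps-30 sit in the large subunit, and moving these genes there left both medians at -0.65 and -0.72. The small subunit median rested on single libraries: it was -0.38 without wildtype replicate 1, -1.06 without wildtype replicate 2 and -0.39 without mutant replicate 2. For the large subunit it ranged from -0.77 to -0.48 over the same omissions.

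The libraries of the same genotype differed from each other by subunit. Against each gene's own mean over the 5 libraries, the median of the large subunit genes was 0.44 and 0.37 (wildtype) against 0.0066, -0.40 and -0.29 (mutant) on the log2 scale. Libraries stand here in the order of their replicate numbers. For the small subunit genes the medians were 0.67 and 0.17 against -0.052, -0.58 and 0.064. Wildtype replicate 2 thus lay close to replicate 1 for the large subunit and below it for the small one. From replicate 1 to replicate 2, 19 of 25 small subunit genes were lower and 20 of 34 large subunit genes, with median differences of -0.41 and -0.08, against -0.26 over all genes tested. Among the mutant libraries, replicate 2 was the lowest of the 5 libraries for 32 of the 59 genes, 17 of the large and 15 of the small subunit. How often this held over all genes tested was not counted. The median log2(normalised count + 1) of all genes tested was 6.42 in this library, against 6.17 to 6.36 in the others.

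**Figure D3:**
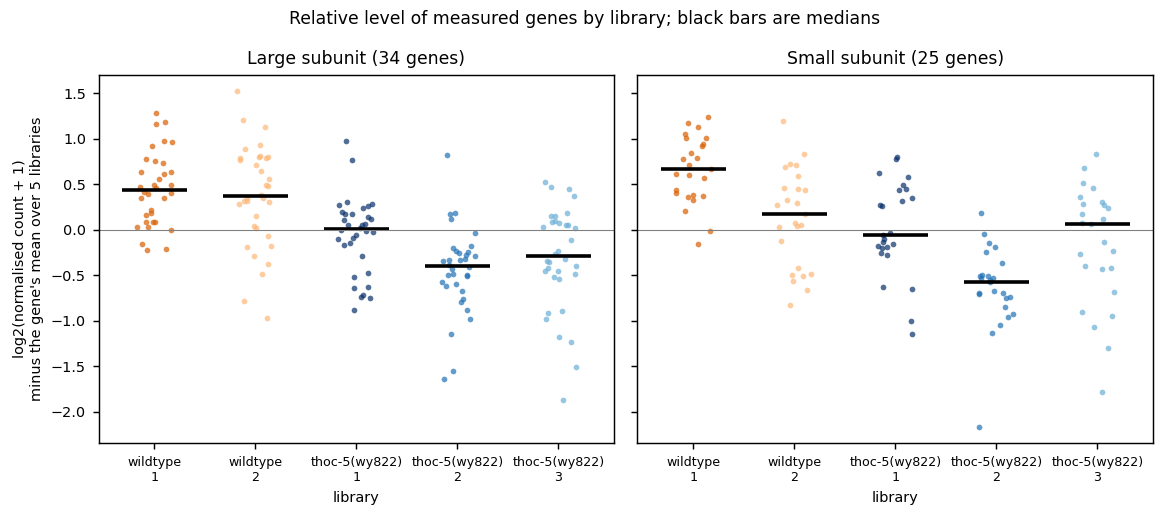
Relative level of each measured gene in each library, as log2(normalised count + 1) minus the gene's mean over the 5 libraries, for 34 large subunit genes (left) and 25 small subunit genes (right), with black bars at the medians. The bars of both wildtype libraries lie above 0, and the lowest bar in either panel belongs to mutant replicate 2.

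The balance of the subunits did not separate the genotypes. Of the reads on all 66 genes, large subunit genes took 53.8% (exact 95% interval 52.6% to 55.1%) in wildtype replicate 1 and 61.9% (60.5% to 63.3%) in wildtype replicate 2. In the mutant libraries they took 58.2% (56.8% to 59.5%), 57.0% (55.1% to 58.9%) and 55.4% (53.8% to 57.0%). All 3 mutant values lay between the 2 wildtype values, whose intervals do not meet. The intervals cover counting error only, since reads carry no molecular identifiers.

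Genes whose human counterparts belong to bacterial families and genes found only in mitochondria were both mostly below 0. This division was drawn up after the values had been seen and is given as a description. Of 41 measured genes of bacterial families 35 were below 0, with a median log2 fold change of -0.56, and 15 (36.6%) lay lower in the mutant without overlap, against 26.5% of all genes tested. All 18 measured genes of the mitochondria-specific kind were below 0, from -1.53 to -0.016 with a median of -0.83, and 11 (61.1%) lay lower without overlap. With libraries scaled to total reads, 15 of the 18 and 24 of the 41 were below 0, against 38.8% of all genes tested. With that scaling 3 of the 18 and 5 of the 41 lay lower without overlap, against 19.1% of all genes.

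Levels are compared between genes per kilobase of exon, in mean normalised counts over the 5 libraries. mrpl-14, with a mean normalised count of 108, had no exon length and is left out. The 3 highest of each subunit were mrps-11 at 197, mrps-14 at 173, mrpl-10 at 169.9, mrps-30 at 168, mrpl-50 at 158 and mrpl-22 at 157. The 3 lowest measured genes of each subunit were mrps-28 at 11.2, mrpl-40 at 18.4, mrps-10 at 19.04, mrps-6 at 19.7, mrpl-39 at 21.2 and mrpl-20 at 25.4, and mrps-16, at 21.1, was the only other gene below the last of these. Medians of the subunits were close, 71.2 for the large and 60.2 for the small one. Measured cytosolic ribosomal protein genes had a median of 1911 on this per-kilobase scale, and nuclear genes of the respiratory chain one of 312. mrpl-50 was the steadiest of the abundant genes, at 167 and 149.8 against 177, 128 and 168 normalised counts (log2 fold change -0.016, SE 0.47).

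The 7 genes that were not measured had few reads in every library. mrpl-45, whose human counterpart anchors the ribosome near the membrane, had 2 reads in wildtype replicate 1, 2 in mutant replicate 2 and 0 elsewhere. mrps-31 had 7 and 4 reads (wildtype) against 2, 0 and 2 (mutant). mrpl-36, counterpart of a small zinc-binding bacterial protein, had 8 and 14 against 3, 1 and 0. mrpl-46, mrpl-55 and mrps-21 had between 1 and 16 reads in a library, and mrpl-12 is given above. These genes entered no test in limma with the filter, and with no filter none of the 66 was called.

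Lists of cytosolic ribosomal protein, respiratory chain and import genes had medians below 0, as the mitochondrial ribosomal genes did. Of 78 measured cytosolic ribosomal protein genes 74 were below 0, with a median log2 fold change of -0.62 that became -0.37 without mutant replicate 2 and -0.16 with total read scaling. Of these 78 genes 2 fell, a lower share than the 5.92% of all genes called lower. These were rpl-11.1, from 896 and 891 in wildtype to 114, 79.2 and 91.6 in mutant libraries (log2 fold change -3.24, adjusted p = 0.0382 in limma), and rpl-25.2 (-1.71, adjusted p = 0.0451 in limma). Mutant replicate 2 had the lowest median of the 5 libraries for the cytosolic genes too, 9.14 on the log2(normalised count + 1) scale, against 9.84 to 10.3 in the others. Of 36 nuclear genes of the respiratory chain 35 were below 0, with a median of -0.89, or -0.42 with total read scaling. The authors' deposited table called 3 of them and DESeq2 5, against 24.1% and 27% of all genes. In limma 1 was called lower, against 5.92% of all genes tested. This was ucr-2.3, a complex III core protein gene, from 198 and 160.4 to 10.97, 17.9 and 3.90 (adjusted p = 0.0434 in limma), while nduf-2.2 of complex I had a log2 fold change of -2.45 without passing in limma (adjusted p = 0.0565). Without wildtype replicate 2, or without any 1 of the mutant replicates, limma called 0 of all genes, so that none of these 3 calls held. Without wildtype replicate 1, rpl-11.1 passed (adjusted p = 0.0230), while rpl-25.2 (0.0596) and ucr-2.3 (0.0835) did not. Of 16 genes of import and inner membrane organisation 13 were below 0, with a median of -0.53, or -0.079 with total read scaling. In limma 0 of them were called, against 2 in DESeq2 and 1 in the authors' deposited table. The lowest p belonged to immt-2, of the mitofilin family (-3.77, adjusted p = 0.0531 in limma and 0.00147 in DESeq2), and mppb-1, which encodes a subunit of the peptidase that cuts import signals (-1.87, adjusted p = 0.0840).

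Genes that work with the mitochondrial ribosome were divided in sign. Of 19 measured genes for mitochondrial translation factors, tRNA synthetases and related proteins 11 were above 0 and 8 below, with a median of 0.28 and 0 called in limma, against 2 in DESeq2 and 1 in the authors' deposited table. The lowest p were those of the tRNA synthetase genes vars-1, with 227 and 94.6 against 467, 473 and 568 (log2 fold change 1.77, adjusted p = 0.0625 in limma), and lars-2 (1.75, adjusted p = 0.0731). vars-1 passed with total read scaling (adjusted p = 0.0486), without wildtype replicate 1 (0.0278) and in DESeq2 (0.0431), and lars-2 in DESeq2 (0.0377). The genes for elongation factor Tu differed from each other. tufm-1 held 304 and 272 against 314, 292 and 232, with overlap. tufm-2 held 184 and 153 against 83.03, 36.8 and 68.2, without overlap and without passing (log2 fold change -1.48, adjusted p = 0.131 in limma). The list also holds dap-3, which encodes a small subunit protein named outside the mrps series, with a log2 fold change of -0.08. Without wildtype replicate 2 the list median was -0.076, and without replicate 1 it was 0.53. For 16 genes of the mitochondrial stress response the median was 0.28 and 11 were above 0. In limma 0 of these were called, against 1 in DESeq2 and 1 in the authors' deposited table. The histone demethylase gene jmjd-3.1 was at 3.31 (adjusted p = 0.0555 in limma, and 0.0466 with total read scaling). The transporter gene haf-1 was at 2.48 (adjusted p = 0.141 in limma). With all 5 libraries hsp-6 was at 0.22. The 5 genes of this list below 0 were hsp-60 (-0.56), dnj-10 (-0.10), atfs-1 (-0.83), phb-1 (-1.04) and phb-2 (-0.87). The list median and the values of jmjd-3.1 and haf-1 rested on single wildtype libraries. Without wildtype replicate 2 the list median was 0.020, jmjd-3.1 was at 1.80 and haf-1 at 0.87. Without replicate 1 the median was 0.70, with jmjd-3.1 at 4.82 and haf-1 at 4.08. The 7 measured genes of mitochondrial DNA and RNA upkeep had a median of -0.085 and 0 called, a median that went to -0.56 without wildtype replicate 1 and to 0.37 with total read scaling, with hmg-5, which packages mitochondrial DNA, at -1.80 (adjusted p = 0.129) and mtcu-1, which had no read in wildtype replicate 2, at 2.85 (adjusted p = 0.162). All lists share the same 5 libraries, and the differences between lists were not tested.

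**Figure D4:**
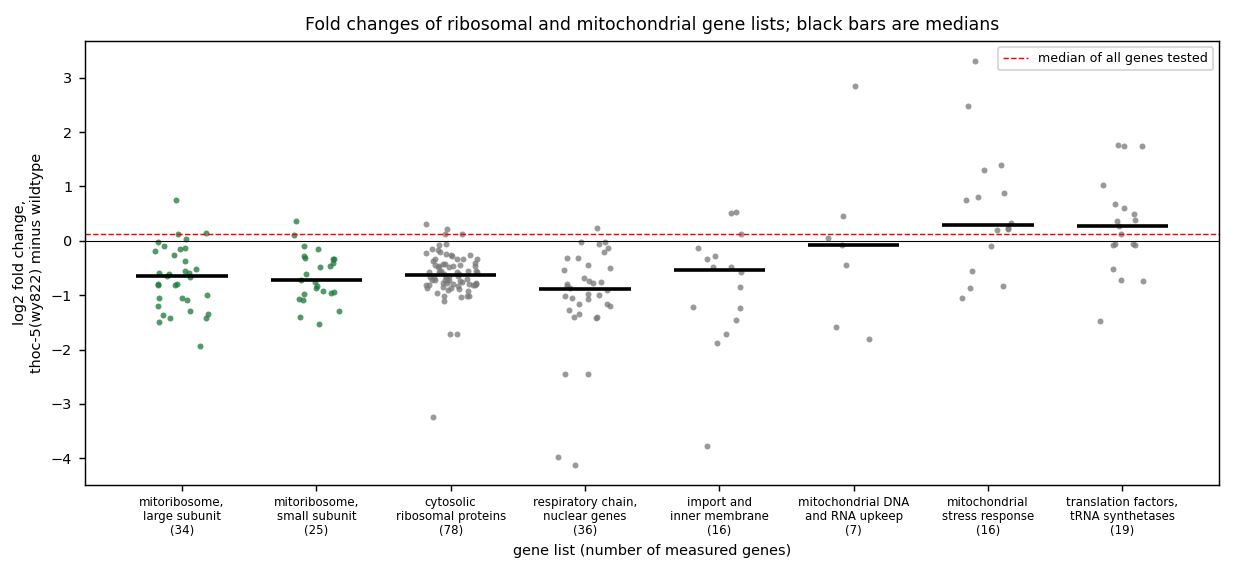
Log2 fold change of each measured gene in 8 lists (points, number of genes in brackets), with black bars at the list medians and a dashed line at the median of all genes tested, 0.13. The medians of both mitochondrial ribosome subunits, the cytosolic ribosome, the respiratory chain and the import list lie between -0.89 and -0.53, and those of the stress response and translation factor lists at 0.28.

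Mitochondrial ribosomal protein genes often lie close behind another gene. Many C. elegans genes are transcribed together as operons, whose members lie one after the other on the same strand and whose joint transcript is cut apart by trans-splicing. In the WBcel235 annotation, matched by name for 65 of the 66 genes, 23 of 58 measured genes with a position (39.7%) had their nearest upstream protein-coding neighbour on the same strand within 500 bases, against 18.4% of all tested protein-coding genes and 11.7% of cytosolic ribosomal protein genes. Genes that overlap their upstream neighbour, such as mrpl-1 and emc-6, are not counted as close. The annotation used here does not mark operons, so closeness is all that is shown. mrpl-4 lies 105 bases behind mrps-2, so this pair is made of genes of both subunits, with log2 fold changes of -0.52 and 0.10.

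The neighbours themselves were not lower as a group. For 22 of the 23 genes the neighbour was tested too. The neighbours had a median log2 fold change of 0.09, against -0.56 for the mitochondrial ribosomal genes beside them. Neighbours counted here include mrps-2, upstream of mrpl-4, and dap-3 (-0.08), upstream of mrps-22 (-0.87), which encode mitochondrial ribosomal proteins themselves. The ribosomal gene was the lower of the pair in 15 of the 22, and 0 neighbours were called. Fold changes within pairs ran together to a degree, with a Pearson r of 0.62 and a Spearman rho of 0.66 over the 22 pairs, which share libraries and may share reads at their ends. mrps-33 (-1.29) and its neighbour F21D5.6 (-1.69) were both low, as were mrpl-54 (-1.49) and F25H5.5 (-1.996), while mrps-30 (-0.10) lay behind cdc-26 (2.77), which had no read in wildtype replicate 2. The log2 fold change of cdc-26 ranged from 0.49 to 5.05 on leaving out a library. With all 5 libraries none of these 3 neighbours passed in limma, and F25H5.5 passed in DESeq2 (adjusted p = 0.0266).

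**Figure D5:**
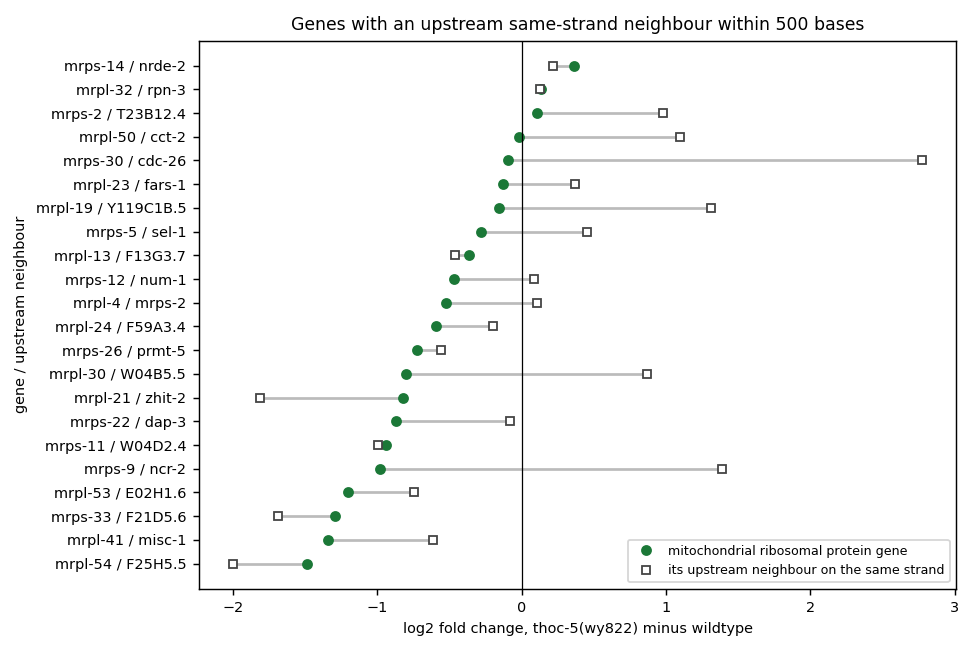
Log2 fold change of 22 mitochondrial ribosomal protein genes (filled circles) and of the upstream same-strand neighbour within 500 bases of each (open squares), joined by a line and ordered by the ribosomal gene. The circle lies to the left of the square in 15 of 22 pairs.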

How the data were processed

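Per the labels' protocols, sorted neurons gave polyadenylated RNA, SMARTer v4 cDNA and Nextera XT libraries, which do not mark strand. Trim Galore, STAR 2.4.2a, DESeq2 and build ce10 are listed in the submitters' processing notes, which give no read counter. The authors scaled each library's gene counts by a size factor, so the deposited values are a signal. Per the file headers, the deposited table also gives their log2 fold change, standard error, test score, p-value and adjusted p-value. Dividing by the step of 1 read gave whole reads (100% of values within 1e-04), on which edgeR called 0 genes and DESeq2 3718.

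Log2(normalised count + 1) of the 13787 measured genes was fitted with limma 3.58.1 (R 4.3.3; lmFit, then eBayes with trend), two-sided, with Benjamini-Hochberg adjustment and a threshold of 0.05. Other settings tried were pseudocounts of 0.5 and 8, a filter of 50 or none, scaling by upper quartile, quantiles or total reads (the last chosen after seeing the data), blocking by replicate number, edgeR 4.0.16 (TMM), DESeq2 1.42.0, the authors' own table, and omission of each library. A lone remaining wildtype library took the spread of the mutant ones. Scripts were tested on simulated counts. Shares have exact (Clopper-Pearson) 95% intervals.

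The genes and lists were chosen with earlier results of these data known. Names found in the table were 19 of 29 (translation), 7 of 13 (DNA and RNA upkeep), 19 of 23 (import), 37 of 49 (respiratory chain) and 17 of 18 (stress response), and genes of mitochondrial DNA were not analysed here. Named genes are, in each subunit, the 3 highest and 3 lowest per kilobase, the 4 largest fold changes in each direction, unmeasured genes, mrps-5, mrps-12, mrpl-2, mrpl-4, mrpl-10, mrpl-11 and mrpl-12, and 2 genes of lowest p in each other list; mrps-18A, mrpl-23, mrpl-24, mrps-16, mrpl-14, tufm-1, tufm-2, dap-3 and the neighbour pairs were named after their values were seen. Also named after their values were seen were hsp-6, the stress response genes below 0, rol-6, sqt-3, col-119, col-140, unc-119, egl-21, egl-3, snb-1 and unc-64. Positions and exon lengths are from Ensembl release 115 (WBcel235), matched by name, since no ce10 annotation was used here. Exons of 16 of the 59 measured genes overlap another gene there.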

Additional observations from a re-analysis of the deposited data

How the results depend on the processing

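No mitochondrial ribosomal protein gene was called in any of the 16 alternatives, and the lowest adjusted p of any named member was 0.0543, for mrpl-1 in DESeq2. All genes called higher and lower, 961 and 816 in limma, went to 0 and 0 with the replicate block, 1737 and 1480 with a pseudocount of 8, 1573 and 1425 with quantile scaling, 0 and 0 in edgeR, 2123 and 1595 in DESeq2, 2063 and 1654 in the authors' deposited table, 533 higher with no filter and 1579 higher with total read scaling; leaving out a library gave 0 to 2167 higher and 0 to 480 lower. The genes below 0, 53 of 59, were 44 to 55 on leaving out a library and 30 of 34 with a filter of 50, where fewer genes were tested. The large and small subunit medians of -0.65 and -0.72 became -0.21 and -0.27 with total read scaling, which moved all genes alike, and ranged from -0.77 to -0.48 and from -1.06 to -0.38 on leaving out a library. The labels do not say whether the replicate numbers pair the libraries. Deviations from the group means correlated at 0.01 and 0.11 for same-numbered libraries, and at -0.11 and -0.01 for crossed ones. With 2 wildtype libraries the deviations of one mirror those of the other, so these values cannot decide whether the numbers mark pairs. With the block, the medians were -0.67 and -0.66. Mutant replicate 3 is alone in its block, so each fold change with the block equals that without mutant replicate 3.

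The sign changed for 14 of 32 named members, none called, and the cause was not tested. With total read scaling, mrpl-10 was at 0.37, mrpl-2 at 0.19, mrpl-50 at 0.44, mrps-10 at 0.11, mrps-23 at 0.29, mrpl-23 at 0.32, mrps-16 at 0.071, mrps-30 at 0.36 and mrps-5 at 0.18. With the replicate block, mrpl-16 was at -0.068, mrpl-17 at -0.043, mrps-2 at -0.22 and mrps-30 at 0.018. mrpl-17 was at -0.056, -0.16 and -0.085 with upper quartile scaling, quantile scaling and edgeR, and mrpl-32 at -0.073 and -0.037 in the last 2. On leaving out a library the ranges were -0.43 to 0.25 for mrpl-10, -0.068 to 0.44 for mrpl-16, -0.33 to 0.39 for mrpl-17, -0.60 to 0.073 for mrpl-2, -0.56 to 0.83 for mrpl-32, -0.11 to 0.12 for mrpl-50, -0.62 to 0.15 for mrps-10, -0.32 to 0.53 for mrps-2, -0.73 to 0.43 for mrps-23, -0.69 to 0.43 for mrpl-23, -1.06 to 0.38 for mrps-16, -0.31 to 0.12 for mrps-30, -1.28 to 0.72 for mrps-5 and -1.32 to 0.37 for mrps-6. Of other genes, dap-3 (-0.078) reached 0.38 with total read scaling and -0.68 to 0.53 on leaving out a library, and tufm-1 (-0.051) 0.41 with total read scaling, 0.077 with the block and -0.14 to 0.077 on leaving out a library. The members had a median of 52 reads in a library, and 52 of 59 varied between mutant libraries by more than counting error.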
